A study of Mus musculus with 5 samples.

Results

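Cells of the developing mouse cerebellum that carried both Eomes and Lmx1a were compared with cells that carried Atoh1 and Barhl1 but neither of the first pair, in 3 libraries of single-cell RNA sequencing. The first kind is labelled brush cell lineage and the second granule progenitors. A gene counted as detected when a cell had at least 1 UMI of it (unique molecular identifier, 1 per captured molecule). This rule found 154 Eomes-Lmx1a cells and 1578 Atoh1-Barhl1 cells among the 3605 cells of the 3 libraries and the 6987 cells of the series. Members were chosen from measured values, so the levels of the 4 gating genes (Eomes, Lmx1a, Atoh1 and Barhl1) are described only. All 4 were left out of the genes tested, with 1 exception. The comparison with cells that had Eomes but no Lmx1a left out only Eomes and Lmx1a. Stricter gates and splits of the cells by the 4 gating genes serve only as alternatives and descriptions.

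The 3 libraries are the e14 libraries RL e14 replicate 1 and replicate 2 and the library RL e13 replicate 2. All are of cerebellum, and the labels give no strain, genotype, treatment or number of animals. RL is read as rhombic lip, after the title of the series, and the letters UT in the library names are not explained. RL e13 replicate 2 is e13 by its title and e14 by its age tag. Because no label ties a library to an animal of its own, each p-value below reflects variation among at most 3 libraries, and that variation may be technical. The other libraries, RL e13 replicate 1 and EomesCreER e16, lie outside the rule. EomesCreER names a tamoxifen-inducible Cre driven from Eomes, and the sources used here do not say how cells of that library were obtained.

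The rhombic lip is the dorsal germinal zone of the hindbrain that gives rise to the glutamatergic neurons of the cerebellum. Granule cell progenitors leave it under the control of the proneural factor Atoh1 and later multiply in the external granule layer in response to Sonic hedgehog. Unipolar brush cells are excitatory interneurons of the granular layer that amplify vestibular input. They arise later from the same lip and express the T-box factor Eomes (Tbr2), and the LIM homeobox factor Lmx1a marks this lineage and the roof plate. Otx2, a homeobox factor of the caudal lip and of the choroid plexus, is a known driver gene of Group 3 and Group 4 medulloblastoma.

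In RL e14 replicate 1 there were 38 Eomes-Lmx1a cells, with 47 in the other e14 library and 69 in RL e13 replicate 2. They made up 3.63% of the cells of the first library (95% Wilson interval 2.66 to 4.95), 6.34% of the second (4.80 to 8.33) and 3.80% of the third (3.01 to 4.78). These intervals cover counting error only. Their median depth was 15522.5, 17203 and 18635 UMIs per cell, against 16399, 21620 and 19039 in the Atoh1-Barhl1 cells, which numbered 485, 350 and 743. The gates often rested on few molecules. Eomes had a median of 7 UMIs (highest 33) and Lmx1a of 1 UMI (highest 14), 16 cells had exactly 1 UMI of each, and 70 cells had at least 2 of each.

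The Eomes-Lmx1a cells were not free of granule lineage genes. Of the 154 cells, 150 had Barhl1 and 98 had Atoh1, and 4 had neither. The comparison is therefore one between cells that largely share Barhl1 and differ in Eomes and Lmx1a. They differ in part in Atoh1 too, which every Atoh1-Barhl1 cell had by the gate. The label was checked against Otx2, the only defining marker given for the brush cell lineage that the gates did not use. Otx2 was detected in 37 of 38, 43 of 47 and 56 of 69 Eomes-Lmx1a cells in the order of libraries above. In the Atoh1-Barhl1 cells it was detected in 189 of 485, 168 of 350 and 208 of 743.

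Markers of mature unipolar brush cells were at or near 0. Lmx1b had no UMI in any of the 154 Eomes-Lmx1a cells, which in RL e13 replicate 2, the library with most of these cells, allows a share of cells with a UMI of up to 4.35%. This bound is on detection, not on expression, and covers counting error only. Calb2, which encodes the calcium buffer calretinin of mature brush cells, was detected in 0 of 38, 3 of 47 and 1 of 69 cells. Its level of 74.1 CPM in RL e14 replicate 2 came from those 3 cells, against 0 and 0.592 CPM in the other libraries. The metabotropic receptor gene Grm2 was also at 0 in all 3 libraries.

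Levels are given in CPM, the mean over cells of each cell's share of its UMIs, scaled to a sum of 1000000 for each kind of cell and library. Each library gave 1 profile per kind of cell, and the profiles were compared in pairs within a library with limma on log2(CPM + 5), with Benjamini-Hochberg adjustment over all genes tested. A gene is called where its adjusted p is under 0.05. Differences on this scale understate the change of genes at low levels. Where 3 values stand together, they are in the order of the 2 e14 libraries (replicate 1 first) and then RL e13 replicate 2.

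Otx2 stood at 618, 467 and 340 CPM in the Eomes-Lmx1a cells and at 89.5, 95.1 and 47.6 CPM in the Atoh1-Barhl1 cells. The lowest library of the first kind lay above the highest of the second. The log2 difference was 2.56 ± 0.12 (SE, n = 3 pairs, limma adjusted p = 4.8e-06, higher in 3 of 3 libraries). With each cell thinned to 10000 UMIs, Otx2 was detected in 86.8% ± 8.73 of Eomes-Lmx1a cells and 30.1% ± 8.22 of Atoh1-Barhl1 cells (SD, n = 3 libraries), against 90.0% ± 8.21 and 38.3% ± 10.0 without thinning. The exact two-sided permutation p over the 3 pairs was 0.25, the smallest that 3 pairs allow. Cells with Sox2 and none of the 4 gating genes, taken here as progenitors (634 cells), had Otx2 at 90.8, 43.9 and 49.2 CPM, in 2 of 3 libraries within 2 CPM of the Atoh1-Barhl1 level.

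The largest difference upwards was that of Slc17a6, which encodes the vesicular glutamate transporter VGLUT2 that loads glutamate into synaptic vesicles. It stood at 174, 243 and 186 CPM in the Eomes-Lmx1a cells and at 5.44, 5.5 and 7.29 CPM in the Atoh1-Barhl1 cells. The difference was 4.21 ± 0.17 (limma adjusted p = 2.8e-06), and Slc17a6 was detected in 87.9% ± 4.66 against 6.12% ± 0.825 of cells. In the Sox2 progenitors it was detected in 0 of 129, 0 of 101 and 2 of 404 cells. In the GENCODE vM21 annotation of mm10, Slc17a6 spans positions 51622006 to 51671119 of chromosome 7, and Otx2 positions 48657677 to 48673819 of chromosome 14. Both are protein-coding genes.

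Next in size came Mab21l2, a gene of eye and midbrain development, at 259, 443 and 156 CPM against 10.8, 9.82 and 9.67 CPM (4.15 ± 0.24, limma adjusted p = 1.7e-05). The calcium channel subunit gene Cacna2d1 (3.99 ± 0.18) and the axonal microtubule gene Mapt (3.86 ± 0.25) followed. The RNA-binding protein gene Celf4 differed by 3.62 ± 0.29 and the tubulin-binding stathmin gene Stmn4 by 3.46 ± 0.15. The neurofilament gene Nefl stood at 250, 1017 and 898 CPM against 55.9, 35.2 and 78.9 CPM (3.39 ± 0.37, limma adjusted p = 0.00033). RL e14 replicate 1 had the lowest Nefl among the Eomes-Lmx1a profiles, and it was still above every Atoh1-Barhl1 profile. Sez6l2, the intermediate filament gene Ina, Mllt11, the proneural gene Neurod4 and the receptor subunit gene Shisa9 completed the 12 highest, with differences between 3.00 and 3.31. All 12 were higher in 3 of 3 libraries.

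**Figure D1:**
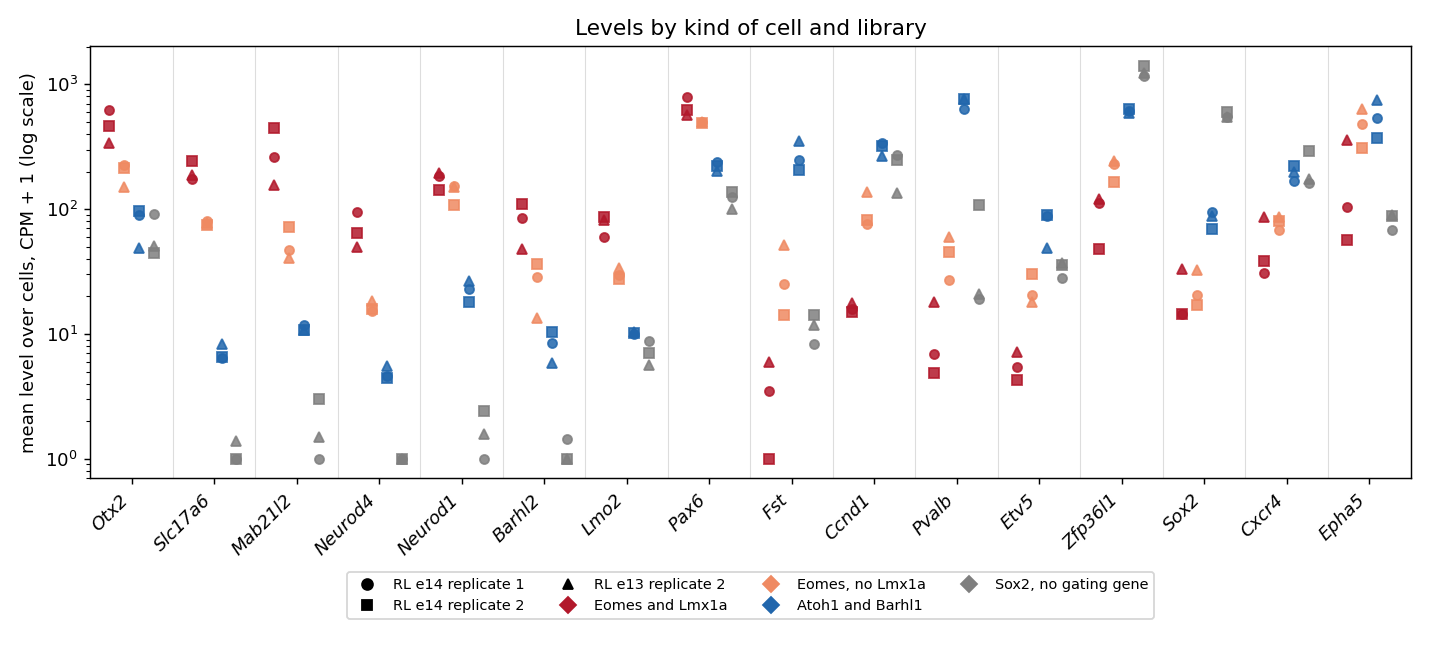
Level of 16 genes in 4 kinds of cells of the 3 libraries, as mean CPM + 1 on a log axis, with 1 point per library and a marker shape for each library. Otx2 was between 340 and 618 CPM in the Eomes-Lmx1a cells and between 47.6 and 95.1 CPM in the Atoh1-Barhl1 cells, with cells that had Eomes but not Lmx1a between them.

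The largest difference downwards was that of Pvalb, which encodes the calcium buffer parvalbumin. Pvalb stood at 5.97, 3.87 and 17.2 CPM in the Eomes-Lmx1a cells and at 636, 756 and 763 CPM in the Atoh1-Barhl1 cells (-5.80 ± 0.21, limma adjusted p = 1.7e-06). Fst, which encodes follistatin, a secreted inhibitor of activins and BMPs, stood at 2.51, 0 and 4.94 CPM against 247, 205 and 352 CPM (-5.21 ± 0.15, adjusted p = 8.8e-07). Neither gene overlapped between the kinds of cell. Ccnd1, the D-type cyclin through which mitogens drive cells out of G1, stood at 14.9, 13.9 and 16.7 CPM against 337, 318 and 266 CPM (-3.95 ± 0.14, limma adjusted p = 1.7e-06). Ccnd2, the other D-type cyclin of granule progenitors, went the opposite way, with 1779, 1114 and 1086 CPM against 1038, 844 and 641 CPM (0.64 ± 0.10, limma adjusted p = 0.0025). Among cells without Mki67 and Top2a, Ccnd2 was higher only in RL e14 replicate 1, with values given below. Pvalb lies on chromosome 15 from 78191114 to 78206400, Fst on chromosome 13 from 114452290 to 114458951 and Ccnd1 on chromosome 7 from 144929931 to 144939925.

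The remaining genes of the 12 lowest spanned differences from -3.88 to -2.73. They were Thsd7b, the FGF-responsive ETS factor gene Etv5 (-3.02 ± 0.25), the semaphorin gene Sema7a, the cadherin-like gene Cdhr1, Prss23, the BMP antagonist gene Nbl1, the long noncoding RNA Gm26669, the mRNA decay factor gene Zfp36l1 and the matricellular gene Sparcl1. Etv5 was at 4.45, 3.28 and 6.14 CPM against 87.0, 89.0 and 48.2 CPM. Zfp36l1 was at 111, 47.1 and 120 CPM against 608, 633 and 588 CPM (-2.76 ± 0.22, limma adjusted p = 7.8e-05). In the Sox2 progenitors, given as values with no test, Zfp36l1 stood at 1157, 1412 and 1228 CPM and Sparcl1 at 652, 995 and 763 CPM, but Fst at 7.29, 13.1 and 10.9 CPM.

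The limma test covered 8256 genes, of which 1127 (13.7%) had higher and 1031 (12.5%) lower levels in the Eomes-Lmx1a cells, together 26.1%. Counts of list members in this comparison are to be read against these shares. The median difference over all genes tested was -0.04. Among genes with a difference of at least 1 on the log2 scale, 433 were called higher and 235 lower. Profiles of the 3 libraries did not overlap between the kinds of cell in 18.8% of genes upwards and 20.6% downwards. With the Atoh1-positive cells alone on the Eomes-Lmx1a side the counts were 550 and 488, and without them 1257 and 1364, both chosen after the data were seen.

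**Figure D2:**
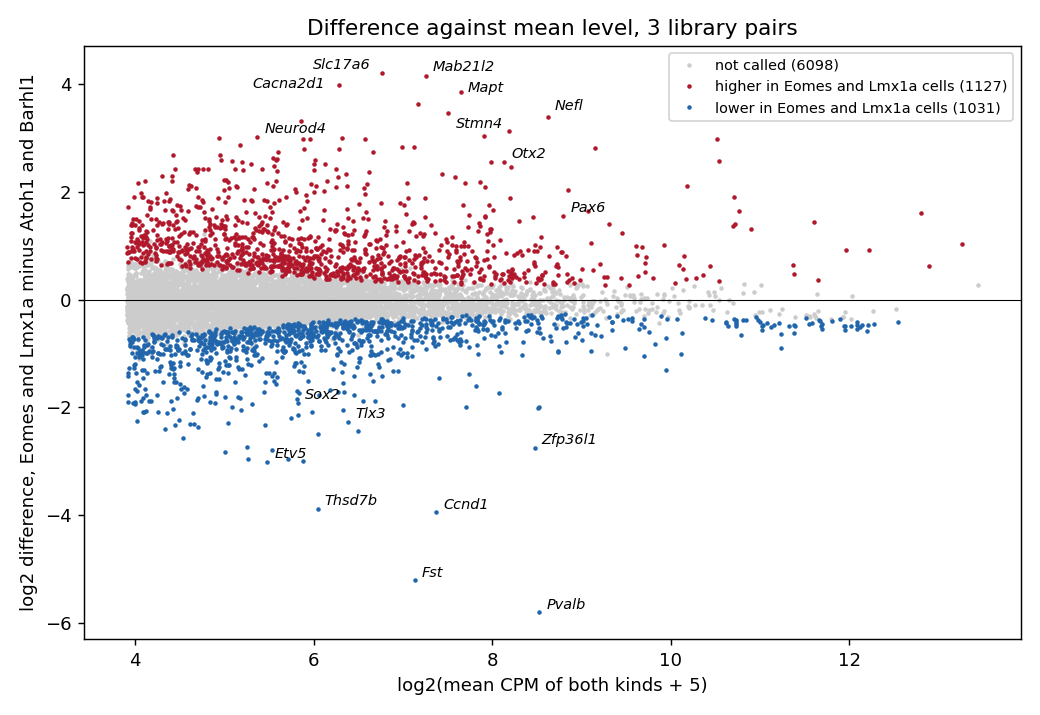
Log2 difference between Eomes-Lmx1a and Atoh1-Barhl1 cells (vertical axis) against the log2 of the mean CPM + 5 of both kinds (horizontal axis) for the 8256 genes tested, with called genes in colour. The 1127 genes called higher reach 4.21 (Slc17a6) and the 1031 called lower reach -5.80 (Pvalb).

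Transcription factors of neurogenesis and of the granule lineage divided between the kinds of cell. Of 14 tested basic helix-loop-helix factor genes 9 were higher and 2 lower, with a median of 1.06. Those that rose included proneural and differentiation factor genes. Neurod1 was at 182, 142 and 192 CPM against 22.0, 17.0 and 25.6 CPM (2.74 ± 0.12, limma adjusted p = 3.9e-06). Neurod4 was at 94.0, 63.5 and 48.6 CPM against 3.62, 3.40 and 4.49 CPM and had no UMI in the Sox2 progenitors. Neurod6 (2.33 ± 0.25), Nhlh2 (2.27 ± 0.18), Nhlh1 (1.96 ± 0.12) and Neurod2 (1.56 ± 0.15) were higher too. Hes6, a gene of committed neural progenitors, was lower, at 611, 379 and 742 CPM against 1438, 1404 and 1318 CPM (-1.31 ± 0.17, limma adjusted p = 0.00075).

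Olig3, a factor of the rhombic lip, was at 77.3, 39.4 and 87.4 CPM against 16.4, 9.13 and 22.3 CPM (1.79 ± 0.16, limma adjusted p = 0.00014). The call was lost in an alternative chosen after the data were seen, in which only Atoh1-negative cells stood on the Eomes-Lmx1a side (0.10, limma adjusted p = 0.88). As a description, since Atoh1 is a gating gene, Eomes-Lmx1a cells with Atoh1 had Olig3 at 93.2 ± 37.5 CPM and those without at 18.0 ± 9.61 CPM (SD, n = 3 libraries).

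Of 28 tested homeobox and LIM factor genes 8 were higher and 11 lower, with a median of -0.03. Barhl2, a close relative of the gating gene Barhl1, was at 83.5, 108 and 47.3 CPM against 7.42, 9.29 and 4.86 CPM (2.74 ± 0.19, limma adjusted p = 4e-05). Pax6, a paired homeobox factor of granule and brush cells, was at 786, 627 and 563 CPM against 238, 221 and 201 CPM (1.55 ± 0.09, limma adjusted p = 1.9e-05). Both genes were higher in the Eomes-Lmx1a cells of all 3 libraries. The LIM factor genes Lhx1 (1.5 ± 0.21) and Lhx9 (1.13 ± 0.30) were also higher.

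Tlx3, a homeobox selector of the glutamatergic fate in the spinal cord, was lower, at 12.5, 21.2 and 11.8 CPM against 162, 249 and 15.2 CPM (-2.27 ± 0.50, limma adjusted p = 0.010). The Atoh1-Barhl1 profile of RL e13 replicate 2 stood apart from the e14 profiles here and came close to the Eomes-Lmx1a level. The call was lost without the expression filter (adjusted p = 0.080) and without the library block (adjusted p = 0.081). The factor genes Meis1 (-0.76 ± 0.21), En1 (-0.59 ± 0.18) and Irx1 (-0.57 ± 0.16) were lower as well.

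Genes of neuronal differentiation were higher as a group. Of 17 tested, 14 were higher and 1 lower, with a median of 1.75. The neuronal tubulin gene Tubb3 was at 1860, 3257 and 2561 CPM against 403, 357 and 497 CPM (2.57 ± 0.17, limma adjusted p = 3e-05). Dcx, the doublecortin gene of migrating neurons, was at 236, 476 and 443 CPM against 111, 115 and 93.2 CPM (1.75 ± 0.19), and Sox4 rose by 1.36 ± 0.13. RL e14 replicate 1 had the lowest Tubb3 and Dcx among the Eomes-Lmx1a profiles. The exception was the synaptotagmin gene Syt1, a calcium sensor of vesicle release, which was lower at 86.6, 145 and 200 CPM against 203, 215 and 286 CPM (-0.75 ± 0.14, limma adjusted p = 0.0048).

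Of 10 tested genes on the list of unipolar brush cell genes 6 were higher and 0 lower, with a median of 2.11. The list was drawn up with earlier results of these data known. Among the higher genes were Otx2, Neurod4 and Plcb1, which encodes a phospholipase C that acts downstream of G protein-coupled receptors (2.86 ± 0.21). Plcb1 was at 49.8, 71.6 and 54.6 CPM against 4.12, 3.27 and 3.59 CPM.

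Genes of the granule lineage moved in both directions. Of 16 tested granule cell progenitor genes 8 were higher and 6 lower, with a median of 0.13. Zic1 (0.99 ± 0.12) and Zic2 (1.01 ± 0.11), zinc finger factors of cerebellar progenitors, were higher together with Pax6, Nhlh1, Barhl2 and Uncx. Fst, Ccnd1, the hedgehog coreceptor gene Boc (-1.36 ± 0.24), Hey1 (-1.0 ± 0.19), Mycn (-0.99 ± 0.21) and Ptch1 were lower. Of 18 tested genes of differentiating granule cells 12 were higher and 1 lower. Among them the adhesion gene Cntn1 was at 114, 146 and 58.7 CPM against 13.1, 18.9 and 7.16 CPM (2.59 ± 0.16, limma adjusted p = 1.9e-05). Etv1 was the one that was lower (-1.06 ± 0.22).

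Genes of progenitors were lower. Of 10 tested rhombic lip progenitor genes 6 were lower and 1, Olig3, higher, with a median of -0.89. Sox2, the stem cell factor, was at 13.4, 13.5 and 32.2 CPM against 94.2, 68.3 and 87.9 CPM (-1.91 ± 0.21, limma adjusted p = 0.00035), and at 545, 601 and 543 CPM in the Sox2 progenitors, which that gene defines. The intermediate filament gene Nes was at 22.4, 21.7 and 35.9 CPM against 127, 142 and 105 CPM (-2.05 ± 0.20). Wls, needed for the secretion of Wnt proteins, passed the test (-0.97 ± 0.25, limma adjusted p = 0.021) and lost its call in 6 alternatives (adjusted p up to 0.41), among them the fit without RL e13 replicate 2 (-0.55, adjusted p = 0.11). Of 6 tested radial glia genes 5 were lower and 0 higher, among them Sparc (-2.33 ± 0.30), the glutamate transporter gene Slc1a3 (-1.53 ± 0.20) and the lipid binding gene Fabp7 (-1.45 ± 0.15). Fabp7 reached 55.4, 70.7 and 145 CPM in the Eomes-Lmx1a cells and 196, 232 and 290 CPM in the Atoh1-Barhl1 cells, against 5210, 7054 and 6247 CPM in the Sox2 progenitors.

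**Figure D3:**
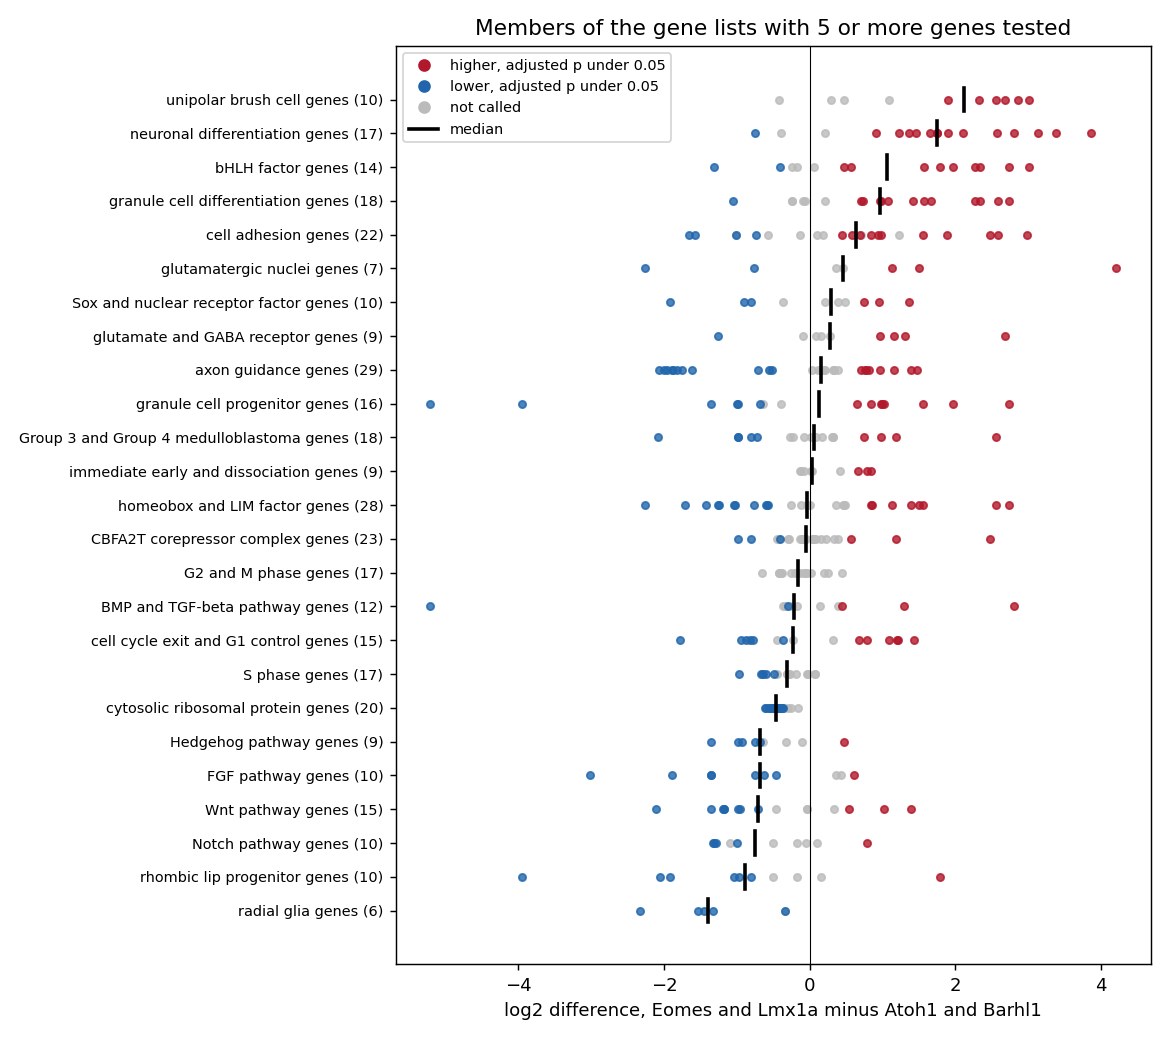
Log2 difference between Eomes-Lmx1a and Atoh1-Barhl1 cells for the members of each gene list with 5 or more genes tested, with the number tested in brackets, 1 point per gene and a black bar at the median. Medians run from 2.11 for unipolar brush cell genes and 1.75 for neuronal differentiation genes to -1.39 for radial glia genes, with G2 and M phase genes near 0.

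The limma test called none of the 17 G2 and M phase genes measured, where 3214 of all 8256 genes had an unadjusted p under 0.05. Mki67, the proliferation antigen, stood at 186, 84.9 and 171 CPM against 165, 185 and 219 CPM (-0.42 ± 0.20, limma adjusted p = 0.15). The kinds of cell overlapped for Mki67, with RL e14 replicate 2 the lowest. Its difference depended on the gates and libraries. It was -1.52 (limma adjusted p = 0.0019) with gates at 2 UMIs, -2.52 (adjusted p = 0.0021) without the Atoh1-positive cells and -0.70 (adjusted p = 0.013) with thinned cells. It was -0.71 (adjusted p = 0.0045) without RL e14 replicate 1, -0.09 (adjusted p = 0.69) without RL e14 replicate 2 and -0.46 (adjusted p = 0.032) without RL e13 replicate 2. Fits without 1 library hold fewer pairs, so their p-values rest largely on variance pooled over genes. The last difference was close to that of the main fit (-0.42), which was not called. The adjusted p of Mki67 ran from 0.0019 to 0.69 over its alternatives. Eomes-Lmx1a cells with Atoh1 had Mki67 at 212 ± 48.8 CPM and those without at 38.4 ± 29.2 CPM. Cells with Mki67 or Top2a made up 48.5% ± 7.44 of Eomes-Lmx1a and 58.1% ± 1.88 of Atoh1-Barhl1 cells (SD, n = 3 libraries, exact two-sided permutation p = 0.25, the smallest that 3 pairs allow), and 44.4% ± 11.1 against 52.2% ± 0.924 after thinning (exact p = 0.50).

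Of 17 tested S phase genes 5 were lower and 0 higher, among them the replication licensing gene Mcm6 at 215, 138 and 194 CPM against 368, 331 and 374 CPM (-0.98 ± 0.11, limma adjusted p = 0.00039). Of 15 genes of cell cycle exit and G1 control 6 were higher and 6 lower. The inhibitor gene Cdkn1b (p27) was higher, at 140, 179 and 137 CPM against 56.3, 62.8 and 70.8 CPM (1.19 ± 0.13), as was the antiproliferative gene Btg1 (1.43 ± 0.18). Cdkn1c, the related inhibitor gene, was lower (-0.88 ± 0.18). Of 20 cytosolic ribosomal protein genes 16 were lower and 0 higher, by a median of -0.46.

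The FGF, Hedgehog, Notch and Wnt lists each held more genes that were lower than genes that were higher in the Eomes-Lmx1a cells. Of 10 tested FGF pathway genes 7 were lower and 1 higher (median -0.69). Those that fell included the FGF-induced genes Etv5, Etv4 (-1.89 ± 0.29) and Dusp6 (-1.36 ± 0.22), a phosphatase that dampens ERK signalling. Dusp6 stood at 12.3, 24.9 and 25.7 CPM against 65.5, 57.4 and 55.6 CPM. The receptor gene Fgfr1 was also lower (-0.63 ± 0.20, limma adjusted p = 0.049), and Fgf13, an intracellular member of the family, was higher (0.60 ± 0.19).

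Of 9 tested Hedgehog pathway genes 5 were lower and 1 higher (median -0.68). The receptor and target gene Ptch1 was at 25.1, 21.3 and 21.6 CPM against 36.5, 48.6 and 34.2 CPM (-0.68 ± 0.18, limma adjusted p = 0.024), and the effector gene Gli3 was lower by a similar amount (-0.75 ± 0.20). The coreceptor genes went opposite ways, with Boc lower and Gas1 higher (0.48 ± 0.15, limma adjusted p = 0.041, higher in 2 of 3 libraries). Of 10 tested Notch pathway genes 4 were lower and 1 higher (median -0.76). The ligand gene Dll1 (-1.28 ± 0.21) and the target genes Hes5 (-1.33 ± 0.28) and Hey1 were lower. Hes5 lost its call without the expression filter and with thinned cells (limma adjusted p up to 0.065), and Dll1 among cycling cells (adjusted p = 0.064). Mfng, which encodes an enzyme that glycosylates Notch, was higher (0.79 ± 0.17).

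Of 15 tested Wnt pathway genes 8 were lower and 3 higher (median -0.70). Wnt5a was at 7.78, 0 and 7.48 CPM against 38.7, 31.1 and 35.5 CPM (-2.11 ± 0.26, limma adjusted p = 0.00065), and the secreted modulator gene Sfrp2 (-1.17 ± 0.25) and beta-catenin gene Ctnnb1 (-0.70 ± 0.10) were lower. Axin2, a direct target of canonical Wnt signalling, was higher, at 96.0, 94.4 and 116 CPM against 44.9, 41.8 and 57.4 CPM (1.02 ± 0.12, limma adjusted p = 0.00049). The ligand gene Wnt3 was higher too (1.39 ± 0.26). Of 12 tested genes on the BMP and TGF-beta list 3 were higher and 2 lower. Apart from Fst the largest were Dner (2.80 ± 0.25) and the receptor gene Bmpr1b (1.30 ± 0.20). Dner encodes a transmembrane protein with Delta and Notch-like repeats, but was counted on this list and not on the Notch list.

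Genes of migration and contact changed in both directions. Of 29 tested axon guidance genes 8 were higher and 11 lower. The chemokine receptor gene Cxcr4, which holds granule progenitors at the pial surface, was at 29.9, 37.6 and 86.1 CPM against 167, 222 and 197 CPM (-1.95 ± 0.22, limma adjusted p = 0.00039). Epha5, an ephrin receptor gene, was at 104, 55.7 and 358 CPM against 540, 370 and 744 CPM (-2.0 ± 0.25), with RL e13 replicate 2 the highest for both kinds of cell. The plexin gene Plxna2 was among those that were higher (1.16 ± 0.31). Of 22 tested adhesion genes 11 were higher and 4 lower, with L1cam at 67.7, 151 and 81.4 CPM against 7.43, 6.82 and 8.63 CPM (2.98 ± 0.24, limma adjusted p = 7.8e-05). Reln, which encodes a secreted guide of neuronal migration, was higher (0.93 ± 0.11), and its receptor gene Lrp8 lower (-1.03 ± 0.24). The Reln call was lost among cycling cells (limma adjusted p = 0.12) and that of Lrp8 in 5 alternatives.

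Medulloblastoma genes did not move one way. Of 18 tested genes of Group 3 and Group 4 medulloblastoma 4 were higher and 5 lower, with a median of 0.05. Otx2 was the highest, followed by Runx1t1 (1.18 ± 0.18), the receptor tyrosine kinase gene Erbb4 at 97.9, 151 and 168 CPM against 68.1, 62.4 and 69.2 CPM (0.98 ± 0.16, limma adjusted p = 0.0024), and Src (0.75 ± 0.17). All 3 Myc family genes were lower. Myc itself was at 2.05, 1.66 and 2.88 CPM against 24.1, 34.5 and 19.4 CPM (-2.08 ± 0.25, limma adjusted p = 0.00050). Mycn lost its call among cycling cells (adjusted p = 0.21) and without the expression filter (adjusted p = 0.064), and Erbb4 and Runx1t1 lost theirs among cycling cells (adjusted p = 0.050 and 0.076).

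The CBFA2T corepressor list had 23 genes tested, with 3 higher and 3 lower, the same share as the 26.1% called over all genes. The corepressor genes Cbfa2t2 and Cbfa2t3 were lower, with Cbfa2t2 at 37.0, 50.2 and 71.6 CPM against 96.2, 104 and 119 CPM (-0.98 ± 0.14, limma adjusted p = 0.0013). Cbfa2t3 was at 99.9, 99.0 and 142 CPM against 199, 194 and 209 CPM (-0.81 ± 0.12, limma adjusted p = 0.0013). Their paralog Runx1t1 went the opposite way, at 104, 142 and 131 CPM against 43.8, 39.9 and 79.8 CPM. Lmo2, an adaptor that bridges LIM and helix-loop-helix factors, was higher, at 59.2, 85.2 and 80.6 CPM against 9.03, 9.12 and 9.37 CPM (2.48 ± 0.18, limma adjusted p = 4.6e-05).

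Markers of several other cell types were low in both kinds of cell, but not those of all. Glutamatergic nuclei genes summed to 360 to 607 CPM over 13 genes in the Eomes-Lmx1a cells and to 437 to 518 CPM in the Atoh1-Barhl1 cells. Of 7 tested, 3 were higher (Lhx9, Lhx1 and Slc17a6) and 2 lower (Meis1 and Tlx3). Radial glia genes summed to 462 to 626 against 809 to 977 CPM, and GABAergic genes to 61.4 to 96.1 against 47.6 to 60.0 CPM. No gene of the oligodendrocyte, microglia, endothelial, meningeal and photoreceptor lists reached the expression filter. Their summed levels in the Eomes-Lmx1a cells were at most 22.6, 7.48, 2.73, 2.55 and 2.29 CPM, with the microglia genes Cx3cr1, P2ry12 and Csf1r and the endothelial genes Cldn5 and Pecam1 at 0. Roof plate and choroid plexus genes, of interest because roof plate cells also carry Lmx1a, summed to 39.4 to 70.1 CPM over 11 genes in the Eomes-Lmx1a cells and to 21.7 to 29.1 CPM in the Atoh1-Barhl1 cells. Leaving out cells with 2 or more of 6 roof plate and choroid plexus markers removed 1 Eomes-Lmx1a cell and gave 1116 genes higher and 1018 lower. Immediate early and dissociation genes summed to 2186 to 2556 CPM over 15 genes against 1516 to 1689 CPM, with 3 of 9 tested genes higher, Jund, Jun and Btg2. Jun lost its call without the filter or the library block (limma adjusted p up to 0.059) and Btg2 without the filter (adjusted p = 0.053). Their part in the differences was not tested.

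The values on either side of the gate are given as a description. Eomes-Lmx1a cells with exactly 1 UMI of each gene (16 cells) had Slc17a6 at 56.7 ± 42.3 CPM, those with 1 UMI of one gene only (68 cells) at 209 ± 44.3 CPM and those with at least 2 of each (70 cells) at 228 ± 51.6 CPM (SD, n = 3 libraries). Zfp36l1 ran the opposite way, at 253 ± 134, 92.0 ± 34.3 and 47.2 ± 15.8 CPM, as did Sox2 at 50.1 ± 14.5, 24.8 ± 20.1 and 6.85 ± 2.70 CPM. Otx2 was at 644 ± 433, 471 ± 71.5 and 420 ± 121 CPM. Mean Slc17a6 was thus lowest, and mean Zfp36l1, Sox2 and Otx2 highest, in the cells at the edge of the gate, with a wide spread between libraries for Otx2. With gates at 2 UMIs 1153 genes were called higher and 1248 lower.

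Cells with Eomes but no Lmx1a, called Eomes-only cells, lie just outside the gate. They numbered 735 (233, 182 and 320) in the same libraries. The comparison with them shares the Eomes-Lmx1a profiles with the first comparison, so values are given side by side. With limma over 8243 genes, 135 (1.64%) had higher and 152 (1.84%) lower levels in the Eomes-Lmx1a cells, together 3.48%. Profiles did not overlap in 4.97% of genes upwards and 7.21% downwards. The counts depended on the pairing by library. Without the library block 10 were higher and 16 lower, and of 57 named genes called here 7 kept their call in all 6 alternatives.

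Those 7 were Mab21l2, Mgat5, Tmem178 and Slc17a6 upwards and Ccnd1, Lingo1 and A930017K11Rik downwards. Mab21l2 was at 46.2, 70.9 and 39.6 CPM in the Eomes-only cells, between the levels of the other kinds of cell (2.26 ± 0.13, limma adjusted p = 8.2e-06). The glycosyltransferase gene Mgat5 was at 56.4, 77.6 and 67.1 CPM in the Eomes-Lmx1a cells against 12.4, 9.07 and 15.3 CPM (2.07 ± 0.19, limma adjusted p = 0.00018). Slc17a6 took an intermediate value as well, at 79.6, 73.4 and 76.0 CPM in the Eomes-only cells (1.33 ± 0.12, limma adjusted p = 0.00013). Ccnd1 was at 75.5, 81.5 and 135 CPM (-2.30 ± 0.17, limma adjusted p = 2.6e-05). Lingo1, which encodes a neuronal membrane protein that limits axon growth, was at 23.1, 46.4 and 33.5 CPM against 133, 175 and 123 CPM (-1.95 ± 0.14, limma adjusted p = 2e-05).

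Otx2 was at 223, 213 and 149 CPM in the Eomes-only cells (1.24 ± 0.09, limma adjusted p = 1.9e-05), and its call was lost without the library block (adjusted p = 0.096). Neurod4 (1.81 ± 0.21), Lmo2 (1.21 ± 0.15) and Barhl2 (1.5 ± 0.14) were higher in the Eomes-Lmx1a cells, whereas Pax6 differed by 0.39 ± 0.09 (limma adjusted p = 0.030). Neurod4 and Lmo2 lost their calls with thinned cells (adjusted p = 0.15 and 0.055), and Barhl2 and Pax6 theirs without the block (highest adjusted p over the alternatives 0.19 and 0.52). Of the 10 tested unipolar brush cell genes 5 were higher and 0 lower.

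Several genes were lower in the Eomes-Lmx1a than in the Eomes-only cells. Tlx3 was at 215, 270 and 37.9 CPM there against 12.5, 21.2 and 11.8 CPM (-2.80 ± 0.34, limma adjusted p = 0.00096), the largest difference downwards. A930017K11Rik was at 81.2, 81.4 and 67.0 CPM against 5.81, 9.59 and 21.3 CPM (-2.34 ± 0.25), and the secretion gene Cadps2 at 89.3, 180 and 75.2 CPM against 10.7, 30.3 and 32.2 CPM (-2.03 ± 0.24). In the Atoh1-Barhl1 cells A930017K11Rik reached at most 20.9 CPM and Cadps2 at most 32.9 CPM. Syt1 was lower too (-1.31 ± 0.15), as were the guidance receptor gene Robo2 (-1.78 ± 0.20) and Epha5 (-1.79 ± 0.22). Apart from A930017K11Rik these calls were lost without the library block (adjusted p up to 0.42).

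Other groups are read against the 3.48% called over all genes. Of 17 tested neuronal differentiation genes 2 were higher and 2 lower (median 0.12). No G2 or M phase gene of 17 was called by limma, where 1204 of all genes had an unadjusted p under 0.05. Of 17 S phase genes 1, Rrm2, was higher, a call that was lost in 4 alternatives. Of 20 ribosomal protein genes 0 passed (median -0.08), and of 10 rhombic lip genes 1 was higher and 1 lower. Sox2 stood at 19.6, 16.1 and 31.6 CPM in the Eomes-only cells (-0.19 ± 0.19, limma adjusted p = 0.71), and Cbfa2t2 and Cbfa2t3 differed by -0.30 ± 0.15 and -0.28 ± 0.10 (adjusted p = 0.39 and 0.22). A p that misses the threshold does not show that these levels are alike.

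Whether the difference between Eomes-Lmx1a and Atoh1-Barhl1 cells was the same in cycling and other cells was tested as an interaction. Cells with Mki67 or Top2a were taken as cycling. The Eomes-Lmx1a profiles then held 19, 19 and 38 cycling and 19, 28 and 31 other cells, below the planned minimum of 20 in some, and a minimum of 15 was used after these numbers were seen. Limma called 19 (0.23%) of 8258 genes with a higher and 55 (0.666%) with a lower difference in cycling cells, together 0.896%. Without RL e14 replicate 2, or without RL e13 replicate 2, 0 genes passed in either direction, with 1005 and 909 genes at an unadjusted p under 0.05, and without the library block 1 and 2 passed.

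Several genes of maturing neurons had a larger difference in cells without Mki67 and Top2a. Nefl was at 91.8, 136 and 322 CPM in cycling and at 409, 1614 and 1604 CPM in other Eomes-Lmx1a cells, while the Atoh1-Barhl1 cells lay between 34.7 and 80.9 CPM in both states (interaction -2.75 ± 0.52, limma adjusted p = 0.032). Mllt11 was at 160, 247 and 183 CPM in cycling and at 490, 833 and 554 CPM in other Eomes-Lmx1a cells (-1.27 ± 0.24, limma adjusted p = 0.032). Tmem178, Cbln1, which encodes a synapse organiser of granule cells, and the cannabinoid receptor gene Cnr1 had interactions of -2.30, -2.43 and -2.42. Tmem178 also differed within the Atoh1-Barhl1 cells, at 25.6, 22.5 and 17.5 CPM in cycling and at 7.34, 8.76 and 9.89 CPM in other cells. Among cycling cells, Cbln1 was at 37.3, 120 and 69.6 CPM in the Eomes-Lmx1a cells against 71.1, 93.6 and 60.6 CPM. It was thus lower there in RL e14 replicate 1. For Nefl, Mllt11, Tmem178, Cbln1 and Cnr1, cycling and other Eomes-Lmx1a profiles did not overlap. The interaction test had called these genes on the same profiles, so this is a description only.

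Zfp36l1 had the highest interaction of the called genes (2.74 ± 0.36, limma adjusted p = 0.0072). It was at 206, 90.6 and 187 CPM in cycling and at 14.9, 17.7 and 37.9 CPM in other Eomes-Lmx1a cells, against 543 to 607 and 649 to 669 CPM in the Atoh1-Barhl1 cells. Ctnnb1 (1.08 ± 0.17) and Ccnd2 (1.07 ± 0.23) behaved likewise, in that their Eomes-Lmx1a level was lower in cells without Mki67 and Top2a. Ccnd2 was at 2033, 1819 and 1430 CPM in cycling and at 1525, 636 and 664 CPM in other Eomes-Lmx1a cells. In the Atoh1-Barhl1 cells it was at 1012, 859 and 609 CPM in cycling and at 1072, 822 and 689 CPM in other cells. Among cells with neither Mki67 nor Top2a detected, Ccnd2 was thus higher in the Eomes-Lmx1a cells only in RL e14 replicate 1. Otx2 was higher than in the Atoh1-Barhl1 cells in both states, at 734, 714 and 437 CPM in cycling and at 503, 299 and 220 CPM in other Eomes-Lmx1a cells, with differences of 2.71 among cycling and 2.51 among other cells (limma adjusted p = 9.5e-09 and 4.6e-09) and an interaction of 0.20 ± 0.22 (adjusted p = 0.71).

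**Figure D4:**
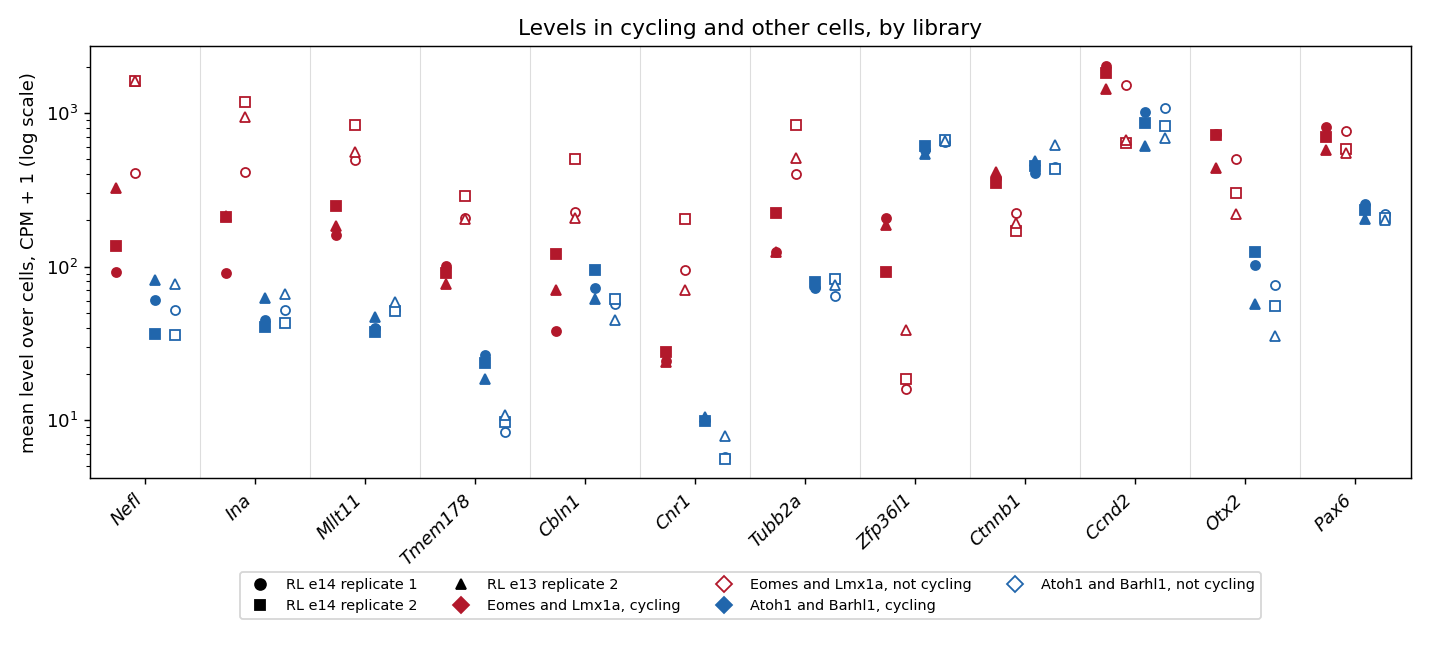
Level of 12 genes in cycling cells (filled) and other cells (open) of each kind and library, as mean CPM + 1 on a log axis. Nefl, Ina, Mllt11 and Cbln1 are higher in the open red points of Eomes-Lmx1a cells than in the filled ones, and Zfp36l1 is lower, while Pax6 covers a similar range in both.

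The libraries outside the rule give values with no test. RL e13 replicate 1 held 1 Eomes-Lmx1a cell and 45 Atoh1-Barhl1 cells and gave no pair. The EomesCreER e16 library held 1659 Eomes-Lmx1a cells (62.0% of its cells) and 26 Atoh1-Barhl1 cells. Of the 1127 genes called higher, 1022 (90.7%) were also higher at e16, and of the 1031 called lower 913 (88.6%) were also lower. Over all genes tested 51.8% were higher there. All 12 of the highest genes and 11 of the 12 lowest kept their direction, with Prss23 the exception at 0.327 against 0 CPM.

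The 26 Atoh1-Barhl1 cells of e16 were unlike those of the 3 libraries in several genes. They had Otx2 at 343 CPM, against 547 CPM in the e16 Eomes-Lmx1a cells, and Slc17a6 at 90.2 against 265 CPM. Tlx3 was at 580 CPM in them and at 8.81 CPM in the Eomes-Lmx1a cells. Pvalb (132 against 0.534 CPM), Fst (43.4 against 0.114 CPM) and Zfp36l1 (231 against 2.02 CPM) kept large differences. Calb2, all but absent from the 3 libraries, was at 131 CPM in the e16 Eomes-Lmx1a cells, while Lmx1b was detected in 1 of the 1659 cells.

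**Figure D5:**
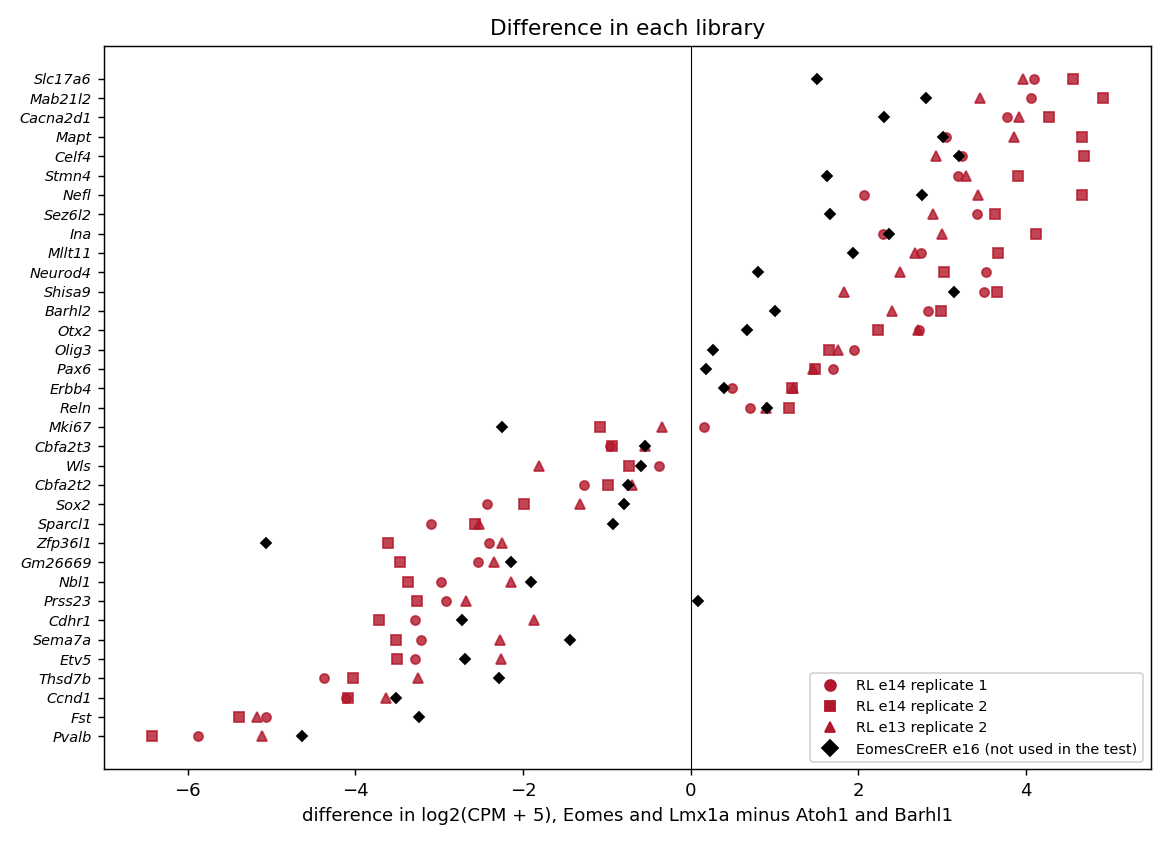
Difference in log2(CPM + 5) between Eomes-Lmx1a and Atoh1-Barhl1 cells in each of the 3 libraries (red) and in the EomesCreER e16 library (black diamond, not used in the test) for 35 genes. The red points of the 12 highest and 12 lowest genes lie on 1 side of 0 for each gene, and Otx2 and Pax6 are higher in all 4 libraries.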

How the data were processed

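Single-cell RNA of developing mouse cerebellum had been sequenced with 10x Chromium 3′ kits, per the labels' protocols. Per the submitters' processing notes, reads went through Cell Ranger with mm10 as the build. The sources used here do not say which filters on cells or doublets the authors applied. The deposited values are on a natural log scale, the ln of 1 plus a cell's UMI count scaled to 10000 per cell, for 15971 genes in 6987 cells. All 29540669 values above 0 (100%) were whole multiples of 1 UMI within a tolerance of 0.01, which gave each cell's UMI counts. The 3 libraries held 17331119, 15095334 and 33502151 UMIs. Batch names matched library titles except for 1, which was taken as EomesCreER e16 because it was the batch left. Of all cells, 12 share a barcode with a cell of another library, 1 of them an Eomes-Lmx1a cell. No doublet caller was run, and leaving out the 5% deepest cells was an alternative.

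Values were back-transformed, averaged over the cells of a kind and library, and scaled to a sum of 1000000 (CPM). Genes averaging at least 10 CPM across the compared profiles were tested with limma 3.58.1 (R 4.3.3, trend) on log2(CPM + 5), with the library as a block, because both kinds of cell come from the same library. The 4 gating genes were left out before the fit, except that only Eomes and Lmx1a were left out against the Eomes-only cells. The interaction is the difference in cycling cells minus that in other cells. No count model was fitted, although UMI counts could be recovered. Summed UMI counts were used in an alternative, also fitted with limma on log2(CPM + 5). Shares were tested with an exact two-sided permutation test over library pairs (scipy 1.17.1). Thinning drew 10000 UMIs per cell, left out 8 Eomes-Lmx1a and 32 Atoh1-Barhl1 cells below that depth, and, for the fits, applied the gates again (96 and 1540 cells). Each fit was tested on simulated data with 200 changed genes and a fixed dispersion of 0.03. That dispersion was set and not estimated from these data, and the simulated libraries shared a common mean level. The shares that follow therefore describe the simulation and need not hold for the real fits. At a log2 change of 1 the fit against Atoh1-Barhl1 cells recovered 50.5% of them. The fit against Eomes-only cells recovered 57% and the interaction 5.5%. At a log2 change of 2 the shares were 93%, 91% and 71%. False genes made up at most 7.46% of the calls.

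Members and the 34 gene lists were chosen with earlier results of these data known. By the rule for named genes these were a set of 12, the 12 largest called differences in each direction per comparison (all libraries one way, at least 50 CPM in the kind with more), and at most 3 called genes per list. Further list members that are named (Dcx, Tubb3, Cdkn1b, Gli3, Zic1 and others) were chosen after their values were seen. Results for some genes are not reported here. Alternatives changed the pseudocount, filter, scaling, block, gates, depth and cells used.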

Additional observations from a re-analysis of the deposited data

Results flagged for a closer look

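The difference between Eomes-Lmx1a and Atoh1-Barhl1 cells itself differed between cycling and other cells for 5 of the genes named in that comparison, by the interaction test of limma over 3 libraries. It was smaller in cycling cells for Nefl (interaction -2.75 ± 0.52, SE, limma adjusted p = 0.032), Ina (-2.11 ± 0.38, adjusted p = 0.026) and Plcb1 (-1.87 ± 0.34, adjusted p = 0.027). The same held for Mllt11 (-1.27 ± 0.24, adjusted p = 0.032). For Zfp36l1, which was lower in the Eomes-Lmx1a cells, the interaction was 2.74 ± 0.36 (adjusted p = 0.0072). Each of the 5 had the same sign in 3 of 3 libraries. None kept its call without RL e14 replicate 2 or without RL e13 replicate 2, where no gene of the table passed.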

How the results depend on the processing

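In the comparison of Eomes-Lmx1a with Atoh1-Barhl1 cells, 62 of 83 named genes called kept their call in each of the 19 alternatives that tested them. Some of the named genes, such as Barhl2 and Olig3, fell below the filter at 50 CPM and were not tested there. The counts of genes higher and lower were 587 and 576 with a filter at 50 CPM (3444 genes tested), 475 and 445 among cycling cells, and 550 and 488 with the Atoh1-positive cells alone, the last chosen after seeing the data. Leaving out 1 library gave 839 to 1208 higher and 829 to 1018 lower, and the fit with no replicate block 842 and 697. Fits without 1 library hold fewer pairs, and their p-values rest largely on variance pooled over genes. The difference of Mki67 turned to 0.14 with the Atoh1-positive cells. Against the Eomes-only cells the counts were 10 and 16 with no replicate block, 79 and 72 with thinned cells, and 108 to 264 and 155 to 286 when 1 library was left out, highest without RL e14 replicate 1. The cause was not tested. Genes that had not passed there changed sign: Mki67 ranged from -0.20 (without that library) to 0.13 and Wls from -0.059 to 0.48 when 1 library was left out, and with thinned cells Mki67, Wls, Erbb4 and Reln turned to -0.084, -0.66, 0.16 and 0.093. For the interaction with cycling state the counts were 1 and 2 with no replicate block, and 0 to 5 and 0 to 14 when 1 library was left out. Median-of-ratios scaling gave 1163 and 946 and shifted the median of all genes by 0.019. Not run were a fit with RL e13 replicate 1 (1 Eomes-Lmx1a cell), a side without Atoh1 and Barhl1 (4 cells) and the interaction at 20 cells per profile. The few Eomes-Lmx1a cells limit what these profiles show for genes at low levels.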
